A study of Mus musculus with 24 samples.

Results

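The genes described here are 10 regulators of the G1 phase and of cardiomyocyte (CM) ploidy: the D-type cyclins Ccnd1, Ccnd2 and Ccnd3, the cyclin-dependent kinases Cdk2, Cdk4 and Cdk6, the kinase inhibitors Cdkn1b and Cdkn2c, and Tnni3k and Runx1, which are known modifiers of CM ploidy. They were taken by symbol from a given list, and they are 10 of the 56923 gene identifiers counted. All 10 passed the filter on low counts, which 20368 genes passed. The counts came from bulk 3′ RNA-seq of sorted PCM1+ CM nuclei at postnatal day 1 (P1), P7 and P14. Controls were XMLC2(-)Casp2(fl/fl) mice, which carry the floxed Casp2 alleles without Cre, and Casp2-depleted CMs came from XMLC2(+)Casp2(fl/fl) mice, in which the XMLC2 promoter drives Cre in CMs. Both genotypes are therefore homozygous for the floxed allele, no group had Cre without floxed Casp2, and cells other than CMs keep Casp2. Each library was a pool of hearts, 15 at P1, 6 at P7 and 2 at P14.

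As background, D-type cyclins bind Cdk4 or Cdk6 in G1 and start the phosphorylation of the retinoblastoma protein, which releases E2F factors, and cyclin E with Cdk2 completes this step and opens S phase. Cdkn1b (p27) inhibits the cyclin-Cdk2 complexes and Cdkn2c (p18) binds Cdk4 and Cdk6 directly. Mouse CMs leave the cell cycle in the first weeks after birth, and many replicate DNA without dividing and become binucleated or polyploid. Tnni3k, a kinase made mainly in CMs, and Runx1, a transcription factor better known from blood formation, have been found to modify the share of mononuclear diploid CMs between mouse strains.

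Each group had 4 libraries, 24 in all, and 3 of them (replicate 1 of P14 Casp2-depleted CMs, replicate 3 of P14 controls and replicate 1 of P1 controls) were left out for low quality, which left 21. The original work left out the same libraries, and took the profile of P1 control replicate 1 as a sign of cytoplasmic contamination. In that library 9.21% of uniquely placed reads lay outside genes. Mitochondrial reads were 1.88% of its reads on genes, against at most 0.588% in the 21 kept. Those kept held 891817 to 2924097 reads on genes, and every P14 library held fewer than any P7 library. The P14 libraries differed from those at P7, with 7628 to 13651 genes with a read at P14 against 14006 to 17770 at P7. The share of uniquely placed reads that lay outside genes, called the no-gene share here, was 63.7 to 76.1% at P14 against 34.3 to 64.3% at P7. P1 libraries overlapped with P14 in both measures, with 10981 to 15268 genes and a no-gene share of 36.8 to 73.9%. All 7 CM markers (Myh6, Ttn, Ryr2, Actn2, Tnnt2, Pln and Myom1) had reads in all 21 libraries. Most markers of other cell types had reads in some libraries. Of the endothelial markers Pecam1 was read in 21 libraries, Flt1 in 20, Tek in 17, Cdh5 and Vwf in 13 each, Kdr in 12 and Egfl7 in none. Of the macrophage markers Adgre1 was read in 19, Csf1r and Mrc1 in 18 each, Ptprc in 7, C1qa in 1 and Cd68 in none. Casp2 itself had reads at P7 alone, with 5, 3, 1 and 0 reads in the controls and 5, 3, 0 and 0 reads in Casp2-depleted libraries, so its counts could not check the genotype, and 3′ reads outside a deleted exon would not show the deletion. The median of all tested genes fell by 0.87 on the log2 scale from P7 to P14 with TMM factors, and it was -0.60 with DESeq2 size factors and -0.17 without scaling factors. Changes from P7 to P14 below are to be read beside this shift. Of the genes called in that comparison over both genotypes, 53 were higher and 1764 lower with TMM factors, and 448 were higher and 716 lower without them.

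Counts covered the whole gene, introns included, and levels of different genes are given here per kilobase of gene model. Reads of a 3′ kit need not scale with gene length, so this order is a description. Over the 21 libraries Tnni3k had the highest level, 3.36 CPM (counts scaled to the reads on genes of each library with TMM factors) per kb, followed by Ccnd1 with 2.42, Ccnd2 with 2.34, Ccnd3 with 1.37, Cdk2 with 1.26, Cdkn1b with 1.05 and Cdk6 with 0.852. Runx1 with 0.306, Cdkn2c with 0.241 and Cdk4 with 0.214 CPM per kb were the lowest. The order by mean CPM was another: Tnni3k 905, Cdk6 161, Ccnd3 130, Runx1 68.7, Ccnd2 63.2, Ccnd1 24.2, Cdk2 9.05, Cdkn1b 5.38, Cdk4 1.84 and Cdkn2c 1.55. The gene models differ widely in size. Tnni3k spans 269.6 kb (chr3:154491827-154761446, GRCm39, minus strand), Runx1 224.7 kb (chr16:92398354-92623037, minus strand) and Cdk6 189.5 kb (chr5:3391485-3581008, plus strand), while the median of the tested genes was 28.2 kb. Cdk2 spans 7.17 kb (chr10:128533796-128540963, minus strand), Cdk4 8.61 kb (chr10:126895180-126903789, plus strand), Cdkn1b 5.11 kb (chr6:134897364-134902476, plus strand) and Cdkn2c 6.43 kb (chr4:109517957-109524386, minus strand). The long genes hold more stretches of 10 or more A on their own strand, at which an oligo-dT primer can anneal: 20 in Tnni3k, 22 in Runx1, 14 in Cdk6 and 15 in Ccnd3, against 1 each in Cdk4 and Cdkn1b and none in Cdk2 and Cdkn2c. The 4 members without a read in at least 1 group were the 4 with the fewest such stretches, and the part of this in their counts was not tested.

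The bases just upstream of the annotated start are shown for Tnni3k, the member with the clearest change over time, and for Cdk2, Cdk4 and Cdkn1b, the members with no read or 1 read at P14. They are from GRCm39, on the strand of the gene, 5′ to 3′ and ending at the base before the start: chr3:154761447-154761596 for Tnni3k, chr10:128540964-128541063 for Cdk2, chr10:126895080-126895179 for Cdk4 and chr6:134897264-134897363 for Cdkn1b. Capitals mark 3 kinds of words, found on either strand: an E2F word (TTTGGCGC, TTTCCCGC, TTTCGCGC or TTTGCCGC), the SP word GGGCGG and the word CCAAT.
Tnni3k: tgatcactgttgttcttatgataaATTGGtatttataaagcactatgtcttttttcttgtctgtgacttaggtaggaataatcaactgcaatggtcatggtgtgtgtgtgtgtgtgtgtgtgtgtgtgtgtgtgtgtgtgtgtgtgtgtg
Cdk2: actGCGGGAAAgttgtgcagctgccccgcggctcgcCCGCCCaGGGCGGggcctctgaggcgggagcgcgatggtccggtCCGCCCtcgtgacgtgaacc
Cdk4: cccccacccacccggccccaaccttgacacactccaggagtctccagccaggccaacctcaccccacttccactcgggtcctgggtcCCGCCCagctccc
Cdkn1b: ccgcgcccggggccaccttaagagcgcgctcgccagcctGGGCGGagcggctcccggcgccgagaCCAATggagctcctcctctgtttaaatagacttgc

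Cdk2 was the one member with an E2F word in the 250 bases upstream of its start, 97 to 90 bases before it. Such a word stood in 2.127% of the 21770 upstream windows of protein-coding genes of this length. Cdk2 also held 3 SP words, Cdk4 held 1 and Cdkn1b held 1, where 29.93% of windows held at least 1. Tnni3k held no SP word and 1 CCAAT word, which 36.14% of windows held, and ended in a long run of alternating t and g. The words are letter matches and no binding was measured in these samples.

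The D-type cyclins, which join growth signals to the G1 kinases, had reads in most libraries at all 3 days, and no change of any of them was called. In Ccnd3, CPM in replicate order was 179, 93.0 and 165 in P1 controls and 144, 173, 44.0 and 278 in P1 Casp2-depleted CMs. At P7 it was 53.3, 180.1, 68.7 and 141 in controls and 127, 178, 122 and 75.2 in Casp2-depleted CMs, and at P14 it was 50.9, 96.8 and 173 in controls and 147, 147 and 91.7 in Casp2-depleted CMs. All 6 groups overlapped, and each group mean lay between 107 and 160 CPM (107 ± 61.7 in P14 controls, SD, n = 3, and 160 ± 96.2 in P1 Casp2-depleted CMs, SD, n = 4). Its log2 fold change from P7 to P14 over both genotypes was -0.01 (SE 0.50), the flattest of the members over a span in which the median gene fell. In the edgeR quasi-likelihood test this gave an adjusted p of 1.00, and the change is small beside its SE.

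Ccnd2 was measured at 52.4, 20.4 and 13.5 CPM in P1 controls and at 55.9, 61.9, 74.6 and 116 CPM in P7 controls, so these groups did not overlap. In 6.89% of all tested genes P7 controls lay wholly above P1 controls. The log2 fold change was 1.42 (SE 1.08), with an adjusted p of 0.791 in edgeR's test, and it was not called. P1 control replicate 1, which was left out, held 159 CPM over its reads on genes, above all P7 controls. That library had signs of cytoplasmic contamination, as given above, so its value may not be a level in nuclei. Casp2-depleted CMs held 141, 27.4, 46.7 and 109 CPM at P1 and 76.6, 57.1, 27.5 and 42.9 CPM at P7, with a log2 fold change of -0.67 (SE 0.97). At P14 Ccnd2 held 45.9, 67.5 and 136 CPM in controls and 28.2, 83.2 and 43.9 CPM in Casp2-depleted CMs. The highest of these, in a control, lay above every P7 library, and the groups overlapped.

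Ccnd1 had no read in 1 or more libraries of 4 groups. CPM was 0, 14.8 and 43.7 in P1 controls, 6.27, 12.96, 38.6 and 18.0 in P7 controls and 84.8, 11.3 and 96.4 in P14 controls. In Casp2-depleted CMs it was 54.3, 0, 33.2 and 9.50 at P1, 22.0, 11.9, 11.7 and 0 at P7, and 0, 37.8 and 0 at P14. P14 controls thus had the highest mean, 64.2 ± 46.2 CPM (SD, n = 3), and the P14 Casp2-depleted mean was 12.6 ± 21.8 CPM (SD, n = 3). The groups overlapped, and the difference between genotypes at P14 was -2.34 on the log2 scale (SE 1.98, adjusted p = 0.716 in edgeR's test).

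**Figure D1:**
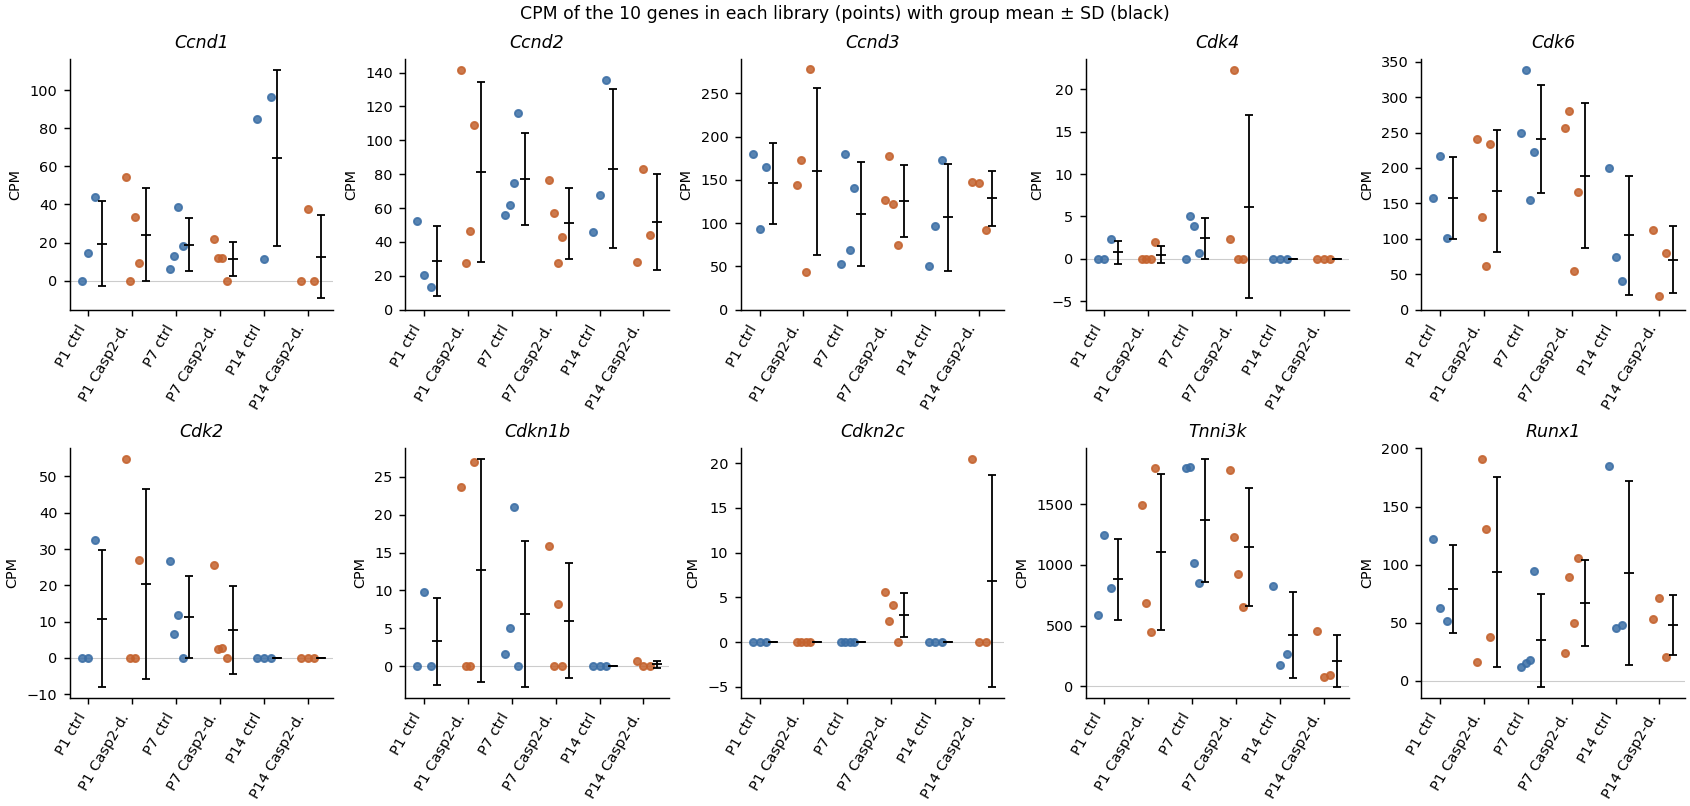
CPM of each of the 10 genes (y axis, linear, with its own range in each panel) in the 21 libraries, by day and genotype (x axis; ctrl, control, blue; Casp2-d., Casp2-depleted, orange). Points are libraries and black bars are the group mean ± SD, which can reach below 0 where libraries are at 0. Tnni3k lay lower at P14 than at P7 within each genotype, Cdk2 and Cdk4 had no read at P14, and the D-type cyclins overlapped between days with the exception of Ccnd2 in P1 and P7 controls.

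Of the kinases, Cdk6 was the one with reads in every library. Cdk6 pairs with the D-type cyclins in G1. It held 157, 216 and 101 CPM in P1 controls, 249, 338, 155 and 222 CPM in P7 controls and 200.05, 75.0 and 40.2 CPM in P14 controls. In Casp2-depleted CMs it held 241, 131, 62.3 and 233 CPM at P1, 256, 280, 54.3 and 166 CPM at P7, and 112, 19.5 and 80.0 CPM at P14. P14 values lay low within each genotype and overlapped with P7 in both. From P7 to P14 the log2 fold change was -1.20 (SE 0.68) in controls, -1.42 (SE 0.69) in Casp2-depleted CMs and -1.31 (SE 0.48) over both genotypes, the last with an unadjusted p of 0.00682 and an adjusted p of 0.0648 in edgeR's test. It was not called there, but the call depended on the fit. With the replicate number as a block it was called, at -1.44 and an adjusted p of 0.0423. It was also called with only the groups compared, at -1.31 and 0.0479. Leaving out 1 library gave a call for P7 Casp2-depleted replicate 3 (-1.46, adjusted p 0.0467), P14 control replicate 1 (-1.74, adjusted p 0.0169) and P14 Casp2-depleted replicate 2 (-1.56, adjusted p 0.0441). In the other direction it was -0.91 without P14 Casp2-depleted replicate 3 (adjusted p 0.239), -0.55 without scaling factors (adjusted p 0.487) and -0.20 with the no-gene share as a covariate (adjusted p 1).

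Cdk4, the other partner of the D-type cyclins, was close to the limit of detection. It had 3 reads in 1 of the 3 P1 controls and 4 reads in 1 of the 4 P1 Casp2-depleted libraries, 0, 7, 6 and 1 reads in P7 controls and 5, 28, 0 and 0 reads in P7 Casp2-depleted libraries, and no read in any of the 6 P14 libraries. P7 Casp2-depleted replicate 2 held 28 of the 47 reads at P7. Cdk4 passed the filter on low counts only through P7, since P1 held 7 reads in 2 libraries. With no read at P14 it had to be lower there than at P7, so no fold is drawn from it. From P7 to P14 over both genotypes the unadjusted p was 0.0109 and the adjusted p 0.0807 in edgeR's test. Cdk4 was thus not called, although it was with all 24 libraries (adjusted p 0.0478). The filter fixed the direction, so the p of the reported fit is no test of a fall.

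Cdk2, the kinase of the cyclin E step, had reads in few libraries and in none at P14. CPM was 0, 0 and 32.6 in P1 controls and 54.8, 0, 0 and 27.0 in P1 Casp2-depleted CMs, from 41 and 163 reads. It was 26.7, 6.48, 11.8 and 0 in P7 controls and 25.7, 2.38, 2.75 and 0 in P7 Casp2-depleted CMs, from 78 and 62 reads. All 6 P14 libraries held 0 reads, as did 14.7% of the tested genes. A count of 0 was read as up to 3 reads over a group. On that floor, Cdk2 reads summed over both genotypes were at least 32.2-fold lower at P14 than at P7. Against P1 they were at least 52.0-fold lower. These bounds cover counting error alone and leave out the spread between pools. At P1, 3 of 7 libraries held a read and the median was 0 CPM. Cdk2 was called lower in both comparisons (adjusted p 0.0297 and 0.0330 in edgeR's test), where 8.66% and 4% of all tested genes were called lower. Without P1 Casp2-depleted replicate 1, which held 109 of the 204 reads at P1, the bound against P1 was 29.4-fold. Within 1 genotype it was not called, with adjusted p from 0.219 to 0.428. The call against P7 was lost without P7 control replicate 1, without P7 Casp2-depleted replicate 1 and without each of the 6 P14 libraries in turn, at adjusted p from 0.0588 to 0.0925. That against P1 was lost without P1 Casp2-depleted replicate 1 or 4 or any 1 of the 6 P14 libraries, at adjusted p from 0.0605 to 0.107, and at 0.157 when replicate number was a block. Without P1 control replicate 4 the controls of both days were at 0 and the comparison could not be fitted. The lower depth of the P14 libraries is given above, and its part in the zeros was not tested. With the no-gene share as a covariate, the adjusted p against P7 was 0.907.

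Both inhibitors were detected in a minority of libraries. Cdkn1b held 0, 9.86 and 0 CPM in P1 controls and 23.6, 0, 0 and 27.0 CPM in P1 Casp2-depleted CMs. It held 1.57, 5.04, 20.9 and 0 CPM in P7 controls and 15.9, 0, 8.26 and 0 CPM in P7 Casp2-depleted CMs. At P14 there was 1 read in 1 of the 6 libraries, against 88 reads at P7, a ratio of 60.8-fold lower with a 95% counting interval from 10.6 to 2428, and the adjusted p was 0.0934 in edgeR's test. Cdkn2c was read in Casp2-depleted libraries alone, with 12, 3, 6 and 0 reads at P7 and 29, 0 and 0 at P14, and with no read at P1 or in any control. Cdkn2c therefore passed the filter on low counts through Casp2-depleted libraries alone and had to differ in that direction, so no fold is drawn from it. It was not called between genotypes at any day.

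**Figure D2:**
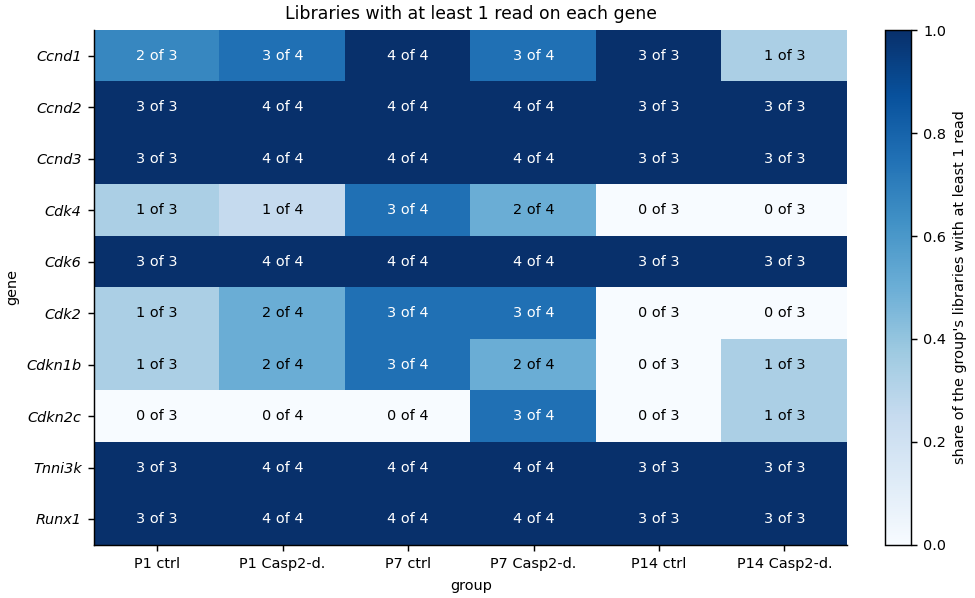
Number of libraries with at least 1 read for each of the 10 genes (rows) in each of the 6 groups (columns), with the shade giving the share of the group's libraries. Ccnd2, Ccnd3, Cdk6, Tnni3k and Runx1 were read in every library, Cdk2 and Cdk4 in none at P14, and Cdkn2c in 3 of 4 libraries at P7 and 1 of 3 at P14 of Casp2-depleted CMs.

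Several members share sequence with genes on the other strand. The strand setting of the counting was not stated, so reads in stretches shared with another counted gene may be missing from both counts. Reads of a partner that was not counted may instead lie on the member, as for Gm29868 over 43.9 kb of Cdk6. Reads set aside as ambiguous between genes were 0.704 to 2.08% of uniquely placed reads in the kept libraries. Gm44238 covers 4.69 of the 5.11 kb of Cdkn1b, Pmel 0.90 kb of Cdk2, Marchf9 and Tspan31 0.996 and 0.646 kb of Cdk4, and Gm18589 12.0 kb of Tnni3k. The start of the Cdk2 window printed above also reaches into an exon of Pmel.

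Tnni3k, the CM kinase that modifies ploidy, was the member with the most reads and fell from P7 to P14 in both genotypes. CPM was 589, 1246 and 813 in P1 controls and 1496, 682, 448 and 1797 in P1 Casp2-depleted CMs. At P7 it was 1797, 1804, 1016 and 847 in controls and 1786, 1228, 922 and 649 in Casp2-depleted CMs. At P14 it was 825, 177 and 263 in controls and 451, 77.5 and 90.4 in Casp2-depleted CMs. Within each genotype every P14 library lay below every P7 library, as in 13.5% of all tested genes in controls and 10.9% in Casp2-depleted CMs, while P1 and P7 overlapped.

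In controls the Tnni3k mean was 1366 ± 506 CPM (SD, n = 4) at P7 and 422 ± 352 CPM (SD, n = 3) at P14, and the log2 fold change was -1.70 (SE 0.45) with an adjusted p of 0.0152 in edgeR's quasi-likelihood test. It was 1 of 10 members called, and 1.87% of all tested genes were called lower there. In Casp2-depleted CMs the means were 1146 ± 488 CPM (SD, n = 4) and 206 ± 212 CPM (SD, n = 3), and the log2 fold change was -2.47 (SE 0.47, adjusted p 2.81e-05), where 2.82% of genes were called lower. Over both genotypes the log2 fold change was -2.08 (SE 0.33, adjusted p 2.56e-08). From P1 to P14 it fell by 2.42 on the log2 scale in Casp2-depleted CMs (SE 0.47, adjusted p 7.56e-05), where 1.92% of genes were called lower. That value was -3.72 without P14 Casp2-depleted replicate 2 and -1.15, not called, with the no-gene share as a covariate (adjusted p 0.124). In controls the P1 to P14 value was -1.07 (SE 0.46, adjusted p 0.428), which was not called, and 0.314% of genes were called lower.

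The call in controls was the less stable. It was lost under 13 of 19 alternatives, among them without P7 control replicate 1 (-1.45, adjusted p 0.0974), P7 control replicate 2 (-1.46, 0.107), P14 control replicate 2 (-1.21, 0.242) or P14 control replicate 4 (-1.45, 0.272). Without P14 control replicate 1 it was -2.63 with an adjusted p of 4.95e-04. Without robust dispersion estimates the adjusted p was 0.0410. In Casp2-depleted CMs it was lost under 4 of 19 alternatives and under none of the 7 that left out a library, and without P14 Casp2-depleted replicate 2 it was -3.77. With the no-gene share as a covariate, the log2 fold change from P7 to P14 was -0.28 in controls (adjusted p 0.928), -0.96 in Casp2-depleted CMs (adjusted p 0.313) and -0.62 over both (adjusted p 0.444). That share itself differed between the days, as given above, so its part and that of age cannot be told apart.

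**Figure D3:**
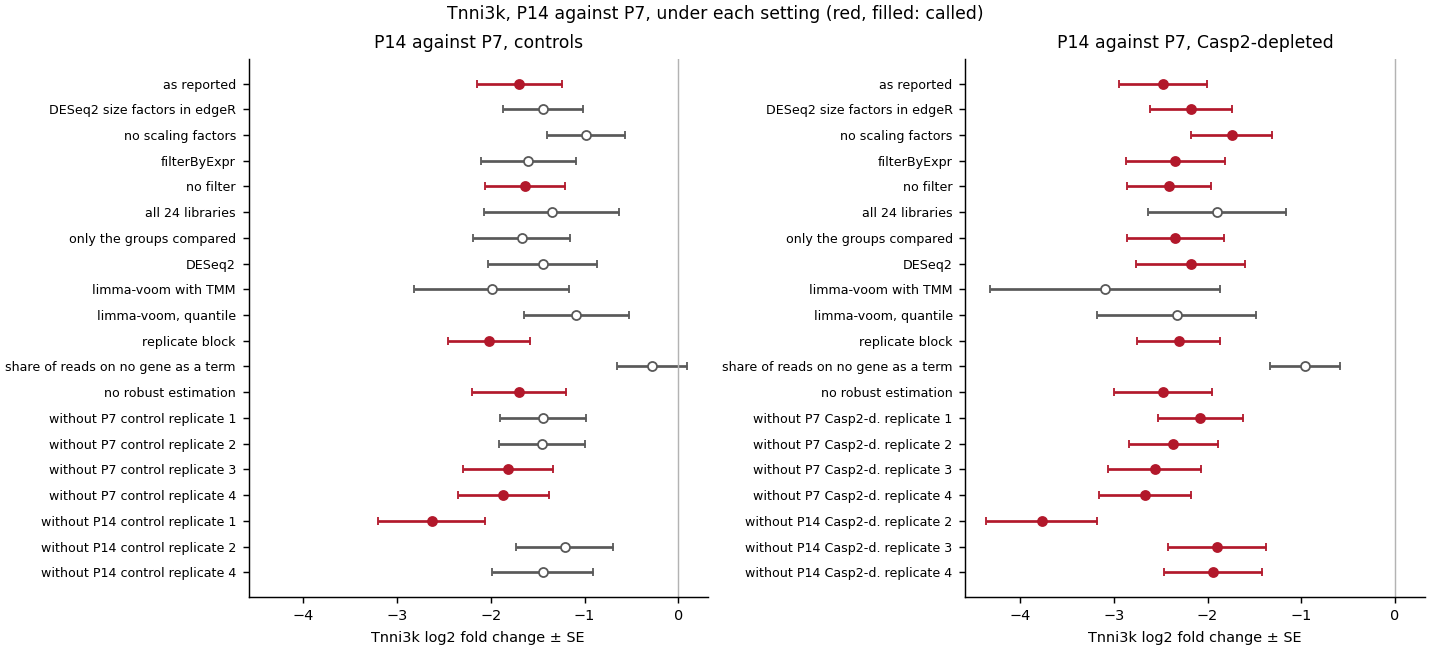
Log2 fold change of Tnni3k from P7 to P14 (x axis, with its SE as bars) under the reported fit and each alternative (y axis), in controls on the left and Casp2-depleted CMs on the right. Red filled points were called. The values were negative under every alternative shown and ran from -2.63 to -0.28 in controls and from -3.77 to -0.96 in Casp2-depleted CMs.

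CM markers moved with Tnni3k. The summed level of the 7 markers was 45228 to 139723 CPM at P7 (median 76292, n = 8) and 9255 to 39738 CPM at P14 (median 14688, n = 6), so the days did not overlap, and at P1 it was 17285 to 101225 CPM. In bulk samples fewer nuclei of a type and less RNA per nucleus cannot be told apart. Relative to the reads on these markers, Tnni3k did not stand apart at P14 over both genotypes. It had 10.8 to 28.2 reads per 1000 marker reads at P7 (median 13.6), 7.55 to 20.8 at P14 (median 16.9) and 15.4 to 39.6 at P1 (median 24.1). By genotype the medians at P7 and P14 were 11.9 and 19.1 in controls and 14.6 and 7.84 in Casp2-depleted CMs. The P14 Casp2-depleted libraries held 20.5, 7.55 and 7.84, and the days overlapped within each genotype. Summed markers of other cell types overlapped between P7 and P14 in all 5 lists. The 7 markers of endothelial cells summed to 136 to 429 CPM at P7 and 45.2 to 712 CPM at P14, and the 6 markers of macrophages to 50.2 to 238 CPM and 30.4 to 233 CPM. The part of the CM markers in the fall of Tnni3k was not tested.

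**Figure D4:**
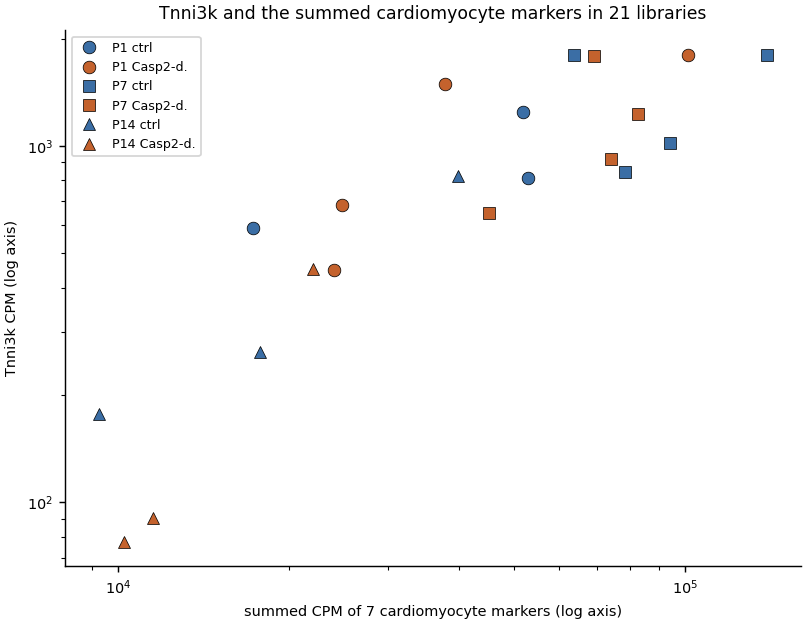
Tnni3k CPM (y axis, log scale) against the summed CPM of 7 CM markers (x axis, log scale) in the 21 libraries, with circles for P1, squares for P7 and triangles for P14, controls in blue and Casp2-depleted CMs in orange. The 6 P14 libraries lie at marker sums of 9255 to 39738 CPM and Tnni3k levels of 77.5 to 825 CPM, and the 8 P7 libraries at marker sums of 45228 CPM or above and Tnni3k levels of 649 to 1804 CPM.

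By the Pearson correlation of log2 CPM over the 21 libraries, among 3030 genes with a read in every library, the genes most like Tnni3k were Ctnna3 (0.963), Malat1 (0.957) and Nfia (0.955), and those most like Cdk6 were Dsg2 (0.866), Wapl (0.855) and Fndc3b (0.853). The points share the depth and day structure of the libraries, and the values are a description.

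Runx1, the second ploidy modifier, was low per kb of gene model and variable, and it was not called in any comparison. CPM was 122, 62.7 and 51.6 in P1 controls and 16.1, 191, 131 and 37.5 in P1 Casp2-depleted CMs. In P7 controls 3 libraries held 11.5, 15.1 and 17.7 CPM and replicate 4 held 94.5 CPM, while P7 Casp2-depleted CMs held 23.8, 89.6, 49.5 and 105 CPM. At P14 controls held 184, 45.8 and 47.8 CPM and Casp2-depleted CMs 53.6, 71.2 and 20.3 CPM. The log2 fold change between genotypes at P7 was 0.95 (SE 0.92, adjusted p 1 in edgeR's test), and that from P7 to P14 in controls was 1.42 (SE 0.98, adjusted p 0.432). Over both genotypes the log2 fold change from P7 to P14 was 0.47 (SE 0.69, adjusted p 0.753).

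Between genotypes no member was called at any day. At P1 edgeR called no gene (0% of 20368), and an unadjusted p below 0.05 was found for no member and for 7.34% of genes. At P7 it called no gene either (0%), and an unadjusted p below 0.05 was found for 1 member and for 4.22% of genes. That member was Cdkn2c, which entered the test only through Casp2-depleted libraries. At P14 it called 0.167% of genes and no member, an unadjusted p below 0.05 was found for 1 member and 12.8% of genes, and Tnni3k had the smallest p of the members. It was 422 ± 352 CPM in controls and 206 ± 212 CPM in Casp2-depleted CMs (SD, n = 3 each), with overlapping libraries, a log2 fold change of -1.03 (SE 0.47), an unadjusted p of 0.0266 and an adjusted p of 0.388 in edgeR's test. Without P14 Casp2-depleted replicate 2 it was -2.33 and called (adjusted p 0.0110), and without P14 control replicate 1 it was -0.09 (adjusted p 1), so single libraries decided its size and the call. For the same comparisons DESeq2 and both limma-voom fits called no member.

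The question whether the genotypes developed differently was tested as an interaction of genotype and day. No member was called in any of the 3 interactions, where 0%, 0.0245% and 0.0638% of genes were called for P7 against P1, P14 against P7 and P14 against P1. Unadjusted p was below 0.05 for 0, 0 and 1 members and for 6.83%, 9.76% and 11.7% of genes. The interaction for Tnni3k was -0.78 on the log2 scale from P7 to P14 (SE 0.61, adjusted p 0.809) and -1.36 from P1 to P14 (SE 0.64, adjusted p 0.365 in edgeR's test), negative where Casp2-depleted CMs had the lower change. The latter was called without P14 Casp2-depleted replicate 2, at -2.65 and an adjusted p of 0.0370, and it was -0.42 without P14 control replicate 1 (adjusted p 1.00) and -0.28 with the no-gene share as a covariate (adjusted p 1). From P1 to P7 no member was called in controls, in Casp2-depleted CMs or over both, where 0.00982%, 0.0196% and 0.0933% of genes were called, and unadjusted p was below 0.05 for 0, 1 and 0 members and for 6.67%, 7.4% and 9.53% of genes. The 1 member was again Cdkn2c.

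**Figure D5:**
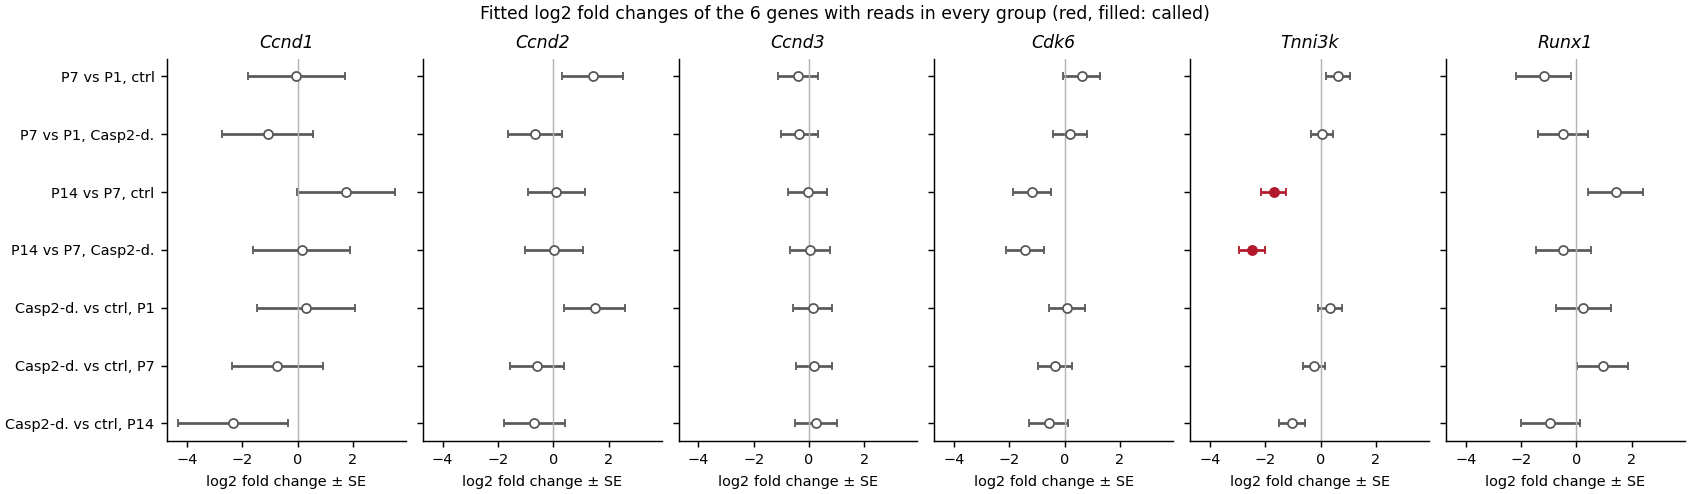
Fitted log2 fold changes (x axis, with SE as bars) of the 6 genes with reads in every group, for 7 comparisons (y axis) between days within a genotype and between genotypes at a day. Red filled points were called; among these 42 values they are Tnni3k from P7 to P14 in controls (-1.70) and in Casp2-depleted CMs (-2.47), and Ccnd3 stays close to 0 throughout.

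Over the 10 members the median log2 fold change from P7 to P14 over both genotypes was -0.66, and it was the same with genes at 0 set to their bound, beside -0.87 for all 20368 genes. Other genes of the pathway were taken from 3 lists. Of 32 further genes of the G1/S step, 27 were tested, and 3 were called lower from P7 to P14 over both genotypes and none higher, where 8.66% of all tested genes were called lower, so the share in the list was near that of all genes. These were Gsk3b, a kinase that marks cyclin D1 for degradation (-1.50, SE 0.48, adjusted p 0.0268), Fbxw7, the adaptor by which cyclin E is degraded (-2.44, SE 0.80, adjusted p 0.0328), and Ccne2, a cyclin E (adjusted p 0.0265). In Casp2-depleted CMs Ccne2 had 313 reads at P7 and none at P14, at least 75.3-fold lower on the floor of 3 reads over the group, and this was called (adjusted p 0.0416). P14 controls held 59 reads of Ccne2, and the difference between genotypes at P14 was not called (adjusted p 0.351). Mnat1, a subunit of the kinase that activates the other Cdks, had a mean of 114 ± 51.7 CPM (SD, n = 4) at P7 and 10.4 ± 10.6 CPM (SD, n = 3) at P14 in Casp2-depleted CMs, with an adjusted p of 0.0583. E2f5, a repressive E2F factor, had 1 read at P1 and 144 reads at P14 in Casp2-depleted CMs, with an adjusted p of 0.132. Ccne1, Ccna2, Myc, Mycn and Cks1b were too low to be tested.

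Of 9 further genes linked to CM ploidy or maturation, all were tested and 3 were called lower from P7 to P14 over both genotypes and none higher, against the same 8.66% of all genes. Meis1, a homeobox factor of CM cell cycle arrest, fell by 1.77 on the log2 scale (SE 0.53, adjusted p 0.0161), Thra, a thyroid hormone receptor, fell by 1.69 (SE 0.43, adjusted p 0.00260), and Tnni3, the adult cardiac troponin I, fell by 3.33 (SE 0.74, adjusted p 0.00924). Tnni3 is itself a CM gene, and the CM markers were lower at P14 as given above. Of 12 genes of replication and mitosis, 9 were tested and 3 were called lower and none higher from P7 to P14 over both genotypes, again beside 8.66% of all genes. Mki67, the common marker of cycling cells, had 871 reads at P7 and none at P14, at least 200.6-fold lower on the floor (adjusted p 1.58e-05). Mcm3, a subunit of the replicative helicase, had 617 reads and none, at least 142-fold lower (adjusted p 2.69e-04). Top2a, the topoisomerase of mitotic chromosomes, fell by 5.62 on the log2 scale (SE 1.24, adjusted p 3.19e-04), and had 407 reads at P7 and 2 at P14 in controls, a ratio of 134-fold lower with a 95% counting interval from 36.9 to 1112. Aurkb, Plk1 and Pcna were too low to be tested. In these 3 lists no gene was called between genotypes at any day. Unadjusted p was below 0.05 for 5 of the 27 G1/S genes at P14 and for none of the other 2 lists at that day, where 12.8% of all genes had such a p. At P7 it was so for 1 G1/S gene higher, 1 lower and none of the other 2 lists, beside 4.22% of all genes. At P1 it was so for 2 G1/S genes lower, 1 gene of replication and mitosis higher and no ploidy gene, beside 7.34% of all genes. The original work reported Cdkn1a and E2f8 as changed at P7 with limma, and Cdkn1a also by qRT-PCR in Casp2-null CMs. Here Cdkn1a had 46 reads in P7 controls, in 3 of 4 libraries, 1 in P7 Casp2-depleted CMs and none at P1 or P14. E2f8 had 6 reads in P7 controls, all in 1 library, and 82 in P7 Casp2-depleted CMs, in 3 of 4 libraries. Neither gene was called between genotypes at P7 in edgeR's test, which called no gene there. E2f8 had no unadjusted p below 0.05 in that comparison.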

How the data were processed

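Bulk RNA-seq of PCM1-sorted CM nuclei was made with the QuantSeq 3′ FWD kit as 100 bp single-end reads. The submitters' notes name cutadapt 4.0, STAR 2.6.1e, HTSeq 2.0.3 and GRCm39, and the authors counted reads over whole genes of Ensembl release 108 and deposited raw counts per gene, 1 table per library. Neither a strand setting nor molecular identifiers are given in the sources used here, so intervals cover counting error only. The rows for reads outside genes (34.3 to 76.1% of uniquely placed reads) did not enter the library totals.

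Counts were fitted in edgeR 4.0.16 (R 4.3.3): TMM factors, a mean for each of the 6 groups over 21 libraries, and robust quasi-likelihood F-tests. A gene was tested if its reads summed to 10 or more and 3 or more libraries held any. A call needed a Benjamini-Hochberg adjusted p below 0.05 over all 20368 genes and a log2 fold change beyond 1 in size. The SE is the absolute log2 fold change over the square root of F. A count of 0 was read as 3 reads over the group. Fold bounds on this floor use summed reads and leave out the spread between pools. Replicates were separate pools of hearts, and p-values measure the spread between pools. The fit was run on simulated data with changes planted only in genes with many reads, which does not cover genes near the floor such as Cdk2.

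Gene models and sequence are from GENCODE vM39 on GRCm39. The members and all lists were chosen with earlier results of these data known. Besides the members, the genes named were those of 3 lists called in any comparison and the 3 of each list with the smallest p in a comparison within a genotype or a day. Cdkn1a and E2f8 were named because the original work reported them. Alternatives included DESeq2 1.42.0 and limma 3.58.1. The names of the deposited tables give the replicate number as a batch. Over 9 pairs of libraries with the same number, the correlation of deviations from group means was -0.059 to 0.185, and it was over 0.1 in 1 pair.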

Additional observations from a re-analysis of the deposited data

Results flagged for a closer look

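In groups of 4 libraries, 28 sets of values were examined for a library far from the others, and 4 stood apart by Dixon's criterion. For normally distributed values chance gives this in about 1 of 20 groups, a rate that does not hold for low counts. These were Cdk2 in P7 Casp2-depleted replicate 1 (25.7 CPM), Cdk4 in P7 Casp2-depleted replicate 2 (22.2 CPM), Cdk4 in P1 Casp2-depleted replicate 4 (2.00 CPM) and Runx1 in P7 control replicate 4 (94.5 CPM). The Cdk4 value at P1 rests on 4 reads beside 3 libraries at 0, where the criterion is met whatever the fourth value.

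Of the 30 values of members in the 3 libraries left out, 8 lay above every kept control library of the same day, in CPM over reads on genes. P1 control replicate 1 held 159 CPM of Ccnd2 (highest kept control 69.9), 39.0 of Cdk2 (31.5), 5.14 of Cdk4 (2.31), 309 of Cdk6 (209.8), 22.7 of Cdkn1b (9.07) and 1689 of Tnni3k (1146). This library had signs of cytoplasmic contamination, and the part of that in its values was not tested. P14 Casp2-depleted replicate 1 held 272 CPM of Ccnd3 (highest kept control 256) and 698 of Runx1 (204), the latter from 1006 reads. The same library had no read of Ccnd1 or Ccnd2.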

How the results depend on the processing

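The number of members called kept its value, or moved only from 2 to 3, in 295 of 342 recomputed cases. From P7 to P14 in controls it went from 1 to 0 with DESeq2 size factors, no scaling factors, filterByExpr, all 24 libraries, only the groups compared, DESeq2, both limma-voom fits and the no-gene share as a term. In Casp2-depleted CMs, from P7 to P14 and from P1 to P14, it went from 1 to 0 with all 24 libraries, both limma-voom fits and the no-gene share. Over both genotypes from P7 to P14 it went from 2 to 1 without scaling factors and with limma-voom after quantile normalization, and to 0 with the no-gene share. From P1 to P14 over both it went from 2 to 1 without scaling factors, with only the groups compared, with the replicate block and with the no-gene share, and to 0 with both limma-voom fits. The replicate block raised the count from P7 to P14 over both genotypes from 2 to 3 by adding Cdk6, removed the Cdk2 call from P1 to P14, and changed no other count of members called. Leaving out each library in turn gave 0 to 1 members for the genotypes at P14, for P7 to P14 in controls and for the interaction of P14 against P1, 1 to 3 for P7 to P14 over both genotypes and 1 to 2 for P1 to P14 over both. The robust estimation was chosen after the data were seen, to process the counts as an earlier analysis of them did. The fit without it was added as an alternative and called the same number of members in each comparison, with a Tnni3k adjusted p from P7 to P14 in controls of 0.0410. Fold changes were followed through the alternatives for 12 values of Cdk2, Cdk6 and Tnni3k, and none of these 265 recomputed values changed sign. The 12 were those with an unadjusted p below 0.05 in the reported edgeR test, without uncalled ones that had a group at 0. They were thus chosen on these same data, and the unchanged signs tell nothing of the other values.

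Counts over all genes moved more. Under the alternatives other than leaving out 1 library, those called from P7 to P14 over both genotypes ranged from 225 (no-gene share) to 3242 (limma-voom with TMM) around 1817, and in controls from 35 (all 24 libraries) to 1150 (limma-voom with TMM) around 382. In Casp2-depleted CMs they ranged from 124 to 1171 around 577. From P1 to P14 they ranged from 14 to 521 around 65 in controls, from 61 to 1188 around 396 in Casp2-depleted CMs and from 216 to 1600 around 863 over both. DESeq2 called 105, 25 and 662 genes between genotypes at P1, P7 and P14, where edgeR called 0, 0 and 34, and at P14 edgeR called 1 with only the groups compared. Depth limits Cdk4, Cdkn1b and Cdkn2c, for which 3 reads were 1.03 to 3.36 CPM in 1 library.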
